A study of Mus musculus with 15 samples.

Results

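The mitochondrial ribosomal protein genes are described here across 3 culture conditions of mouse bone marrow monocytes, the precursors that fuse into bone-resorbing osteoclasts. Members were taken by name, as every gene of the full expression table whose symbol starts with Mrpl or Mrps and a number, leaving out pseudogene names. The rule gave 78 of the 41819 genes in the table, 49 named Mrpl for the large subunit and 29 named Mrps for the small subunit. SCRP cultures had RANKL at 50 ng/ml for 3 days with pterosin B at 300 µM, SCR cultures had the same RANKL without pterosin B, and SC cultures had vehicle without RANKL. M-CSF at 50 ng/ml was kept beside RANKL, and how long SC cultures were kept is not stated. All 3 groups were non-adherent C57BL/6J bone marrow cells that had first had 2 days of M-CSF alone at 50 ng/ml, and each group held 3 libraries. The design text of the series speaks of embryonic livers, while every sample label says bone marrow monocytes, and the labels were followed. A second experiment compared KO cultures, with Sik3_flox/flox deleted by Rank_Cre in the osteoclast lineage, against WT cultures, 3 libraries each, both after 2 days of M-CSF and then 2 days of RANKL. The WT label reads wild type control, and the protocol names both plain C57BL/6J and Rank_Cre/+ mice without saying which were used as controls.

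The mitochondrial ribosome translates the few messenger RNAs of mitochondrial DNA, which encode core subunits of the respiratory chain and ATP synthase. Its ribosomal RNAs are mitochondrial, while all of its proteins are encoded in the nucleus and imported. Some of these proteins descend from bacterial ribosomal proteins and others are found only in mitochondria. RANKL is the cytokine that drives osteoclast formation, M-CSF is a macrophage growth factor, and pterosin B, a small molecule first known in bracken, is used to inhibit the salt-inducible kinase SIK3.

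Libraries held 37138648 to 49927591 exon reads, and all 78 members had at least 400 reads in every library and passed the filter on low counts. Levels are given as CPM, read counts scaled to the effective size of each library. The summed level of 10 osteoclast genes was 1026 to 1352 CPM in SCRP, 5400 to 5644 CPM in SCR and 72.3 to 74.7 CPM in SC, and all 10 passed the test in each comparison. All 10 macrophage markers fell in SCR against SC, and 5 of them rose and 1 fell in SCRP against SCR. B cell markers summed to at most 1.68 CPM and T and NK cell markers to at most 0.553 CPM in a library. Neutrophil markers summed to 13.0 to 15.7 CPM in SCRP, 22.7 to 24.2 CPM in SCR and 28.4 to 50.0 CPM in SC, and of 9 tested 4 fell in SCR against SC, 4 in SCRP against SCR and 7 in SCRP against SC. The third SCRP library stood apart in erythroid genes, with Hba-a1 at 18.1 CPM against at most 0.0477 CPM in the other libraries, and results that turn on that library are named beside their values. In bulk RNA, fewer cells of a type and less RNA per cell cannot be told apart, and the part of these cell type differences in the member values was not tested. The labels do not say that libraries came from separate animals, so p-values measure the spread between these libraries only.

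Most mitochondrial ribosomal protein genes were higher after RANKL. In SCR against SC, 59 of 78 members rose and 2 fell at an adjusted p under 0.05 in edgeR's quasi-likelihood test, while over all 13650 genes tested 30.7% rose and 28.4% fell. Both subunits shared the direction. Among Mrpl genes 37 of 49 rose and 1 fell, with a median log2 fold change of 0.39, and among Mrps genes 22 of 29 rose and 1 fell, with a median of 0.37. The median over all genes tested was 0.02. The 3 SCR libraries all lay above the 3 SC libraries for 63 members, against 33.7% of all genes, and all below for 1 member, against 31.8% of all genes.

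**Figure D1:**
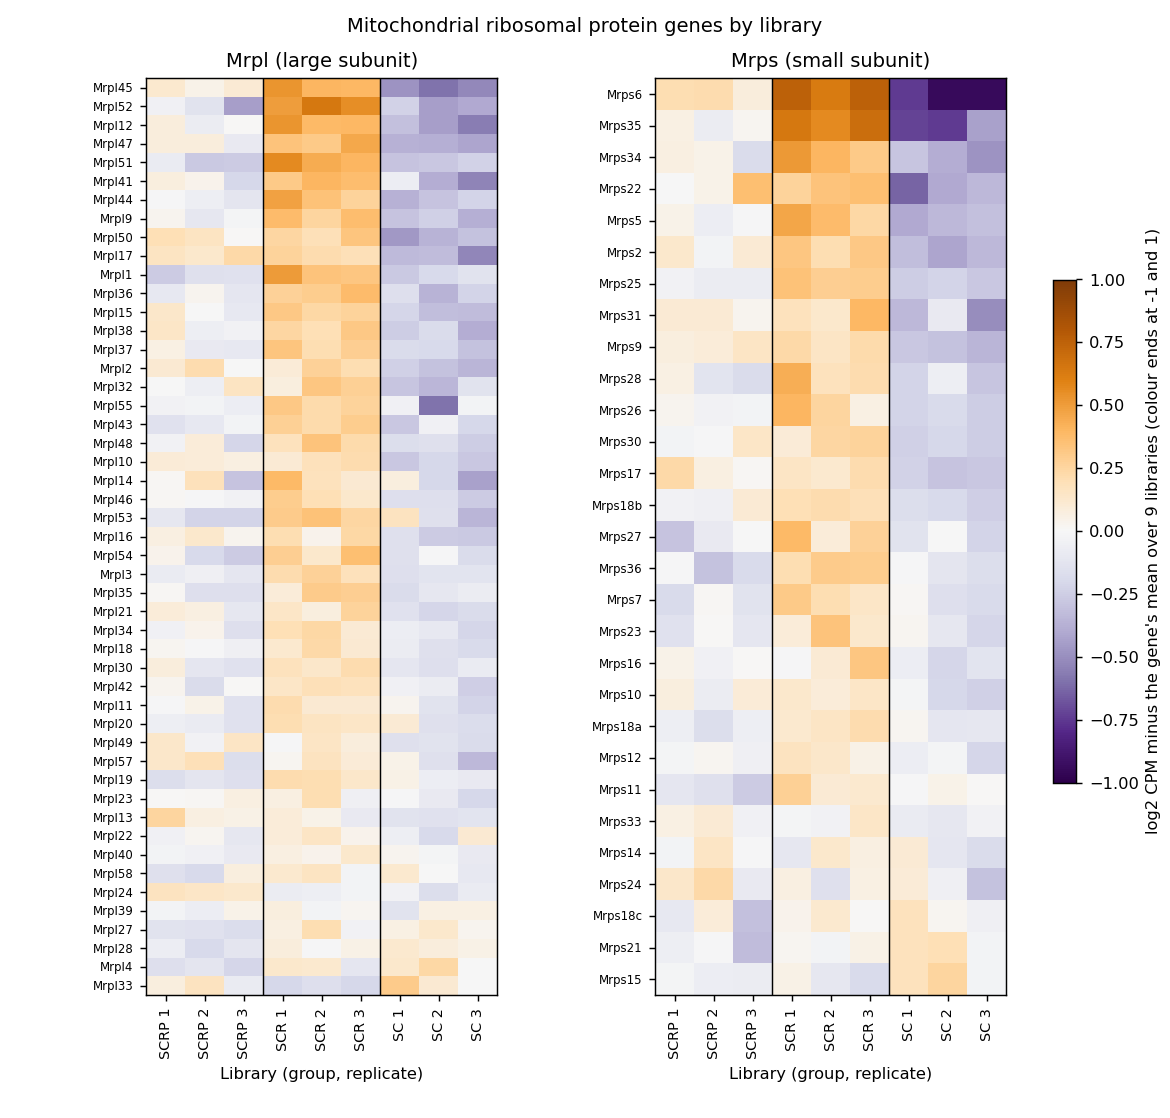
Level of each member in each library, as log2 CPM minus the mean of that gene over 9 libraries, with SCRP, SCR and SC libraries from left to right and genes ordered by their log2 fold change in SCR against SC. Most rows are highest in the SCR columns and lowest in the SC columns, with the SCRP columns between, and the colour scale ends at -1 and 1.

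Promoter sequence was read for the members from RefSeq windows of 250 bases before to 50 after the gene start on GRCm38.p6, because so many members moved together. Of the 78 members, 69 had a window, some of them more than 1, which gave 75 windows. The letters CCGGAAG, the core bound by ETS factors such as GABPA, stood on either strand in 34.7% of member windows, against 17.3% of the 13119 windows of genes tested and 8.86% of all 32851 windows. YY1 letters, AAGATGG, were in 17.3% of member windows, against 7.13% of tested genes and 6.34% of all windows. NRF1 letters, GCGCATGC, were in 10.7% of member windows, against 5.03% and 2.71%. By subunit, the NRF1 letters were in 14.6% of 48 Mrpl windows but in only 1 of 27 Mrps windows (3.70%), below the share of tested genes. ETS letters were in 31.25% of Mrpl and 40.7% of Mrps windows, and YY1 letters in 14.6% and 22.2%. Differences between the subunits were not tested. The E-box CACGTG was in 9.33% of member windows, against 9.97% and 7.15%, and the GC box GGGCGG in 52.0%, against 60.6% and 35.7%. Overlapping windows of Mrpl2 hold the same E-box, and by gene the E-box was in 5 of 69 members and 1220 of 10314 tested genes. GABPA, YY1 and NRF1 are factors known to act on nuclear genes for mitochondrial proteins. A match is a run of letters and not a binding site.

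**Figure D2:**
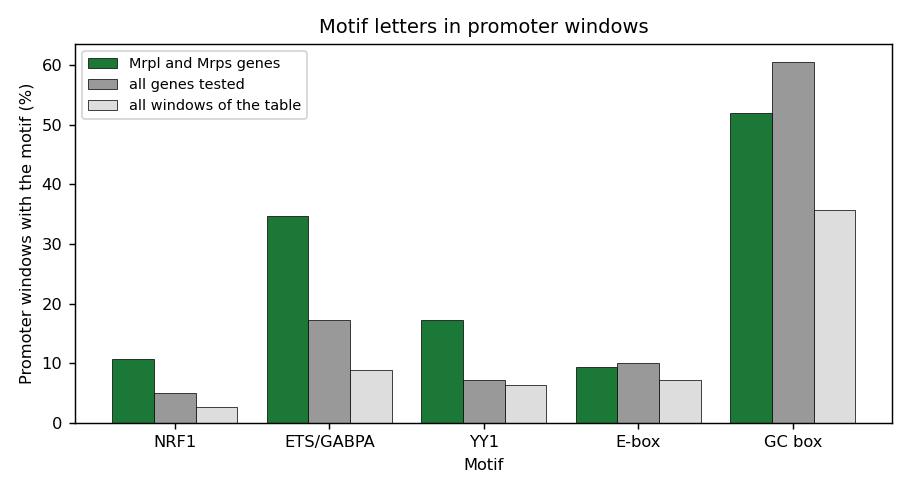
Share of promoter windows, in percent, that hold each motif on either strand, for Mrpl and Mrps genes, all genes tested and all windows of the RefSeq table. Member windows hold the ETS/GABPA letters at 34.7% against 17.3% of tested genes, and the GC box at 52.0% against 60.6%.

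Members with and without the letters mostly rose. Over all genes tested 30.7% rose and 28.4% fell in SCR against SC, and 17.9% rose and 19.9% fell in SCRP against SCR. Of 26 members with the ETS letters 18 rose in SCR against SC, with a median log2 fold change of 0.30, and of 43 without them 34 rose, with a median of 0.42. For NRF1 letters 5 of 8 with and 47 of 61 without rose, with medians of 0.41 and 0.37. For YY1 letters 11 of 13 with and 41 of 56 without rose, with medians of 0.33 and 0.40. In SCRP against SCR, 14 of 26 with and 22 of 43 without ETS letters fell, 2 of 8 and 34 of 61 for NRF1, and 9 of 13 and 27 of 56 for YY1. None of these differences was tested. Below are 150 bases before to 30 after the start of 6 members, 5′ to 3′ on the strand of the gene, chosen with their values known to show different motif contents: 5 that rose in SCR against SC and Mrpl33, which fell. Capitals mark the letters of any of the 5 motifs on either strand, and positions follow each name.
Mrps6, chr16:92058186-92058365, plus strand, GC boxes only, the first pair overlapping: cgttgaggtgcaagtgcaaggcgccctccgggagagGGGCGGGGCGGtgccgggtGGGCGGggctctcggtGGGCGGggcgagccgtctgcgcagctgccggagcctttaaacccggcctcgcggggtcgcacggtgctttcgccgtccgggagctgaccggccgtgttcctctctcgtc
Mrpl12, chr11:120484487-120484666, plus strand, none of the motifs: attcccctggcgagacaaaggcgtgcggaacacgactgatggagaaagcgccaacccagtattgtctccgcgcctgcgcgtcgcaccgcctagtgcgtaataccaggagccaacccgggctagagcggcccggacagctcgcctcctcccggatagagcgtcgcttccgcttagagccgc
Mrpl51, chr6:125192050-125192229, plus strand, ETS letters and a GC box: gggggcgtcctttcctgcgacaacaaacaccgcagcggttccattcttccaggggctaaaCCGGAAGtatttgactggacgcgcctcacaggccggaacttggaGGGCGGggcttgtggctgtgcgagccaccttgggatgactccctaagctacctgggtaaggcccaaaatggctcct
Mrpl52, chr14:54426759-54426938, plus strand, YY1 letters and ETS letters: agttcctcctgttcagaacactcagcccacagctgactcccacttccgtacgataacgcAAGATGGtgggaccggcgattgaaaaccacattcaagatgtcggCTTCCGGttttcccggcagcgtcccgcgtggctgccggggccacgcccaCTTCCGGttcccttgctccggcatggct
Mrps22, chr9:98601650-98601829, minus strand, a GC box and ETS letters: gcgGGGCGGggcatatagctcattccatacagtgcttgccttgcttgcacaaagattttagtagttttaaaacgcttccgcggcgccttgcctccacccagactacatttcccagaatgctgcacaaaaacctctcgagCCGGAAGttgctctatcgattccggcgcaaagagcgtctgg
Mrpl33, chr5:31613801-31613980, plus strand, NRF1 and ETS letters 1 base apart: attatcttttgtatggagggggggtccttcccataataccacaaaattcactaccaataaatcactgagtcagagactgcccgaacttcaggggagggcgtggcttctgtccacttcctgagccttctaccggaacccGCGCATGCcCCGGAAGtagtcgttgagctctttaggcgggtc
Mrps6 and Mrpl12 lacked the ETS, NRF1 and YY1 letters in this stretch, and Mrpl45, which is not shown, held none of the 5 motifs in its whole window, which says only that those exact letters are not there. Mrpl33, which fell in SCR, held both NRF1 and ETS letters beside its start.

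The largest increases in SCR were in 2 small-subunit genes. Mrps6 (ENSMUSG00000039680), the mitochondrial counterpart of bacterial protein S6, had 44.8, 41.1 and 44.8 CPM in SCR, against 15.9, 13.8 and 13.9 CPM in SC. The groups did not overlap, and the log2 fold change was 1.58 ± 0.08 (SE, adjusted p = 2.79e-11). Mrps6 lies at chr16:92058270-92112227 on the plus strand. It shares exon bases with Slc5a3, an inositol transporter gene, and with Gm49711, both on the same strand, and only 43.7% of its reads were unique to it. Slc5a3 rose by 2.89 ± 0.09 on the log2 scale, but only 2.49% of Slc5a3 reads were unique, so that value rests mostly on reads that were not. On unique reads alone Mrps6 rose by 1.60 ± 0.10 (adjusted p = 5.39e-11). Mrps35, a small-subunit protein found only in mitochondria, had 39.3, 37.3 and 40.8 CPM in SCR, against 15.3, 15 and 18.6 CPM in SC. Its log2 fold change was 1.26 ± 0.09 (adjusted p = 1.78e-09), and all of its reads were unique.

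Within the small subunit, Mrps34 and Mrps22, both without a bacterial counterpart, followed. Mrps34 had 47.8, 44.3 and 41.6 CPM in SCR, against 27.6, 25.7 and 24.1 CPM in SC, a log2 fold change of 0.79 ± 0.08 (adjusted p = 3.37e-07). It overlaps Nme3 and Mapk8ip3, neither of which passed in SCR against SC (log2 fold changes of -0.26 and -0.08), and on its 43.2% of unique reads it rose by 0.77. Only 34.4% of Nme3 reads were unique. Mrps22 had 30.1, 31.8 and 32.3 CPM in SCR, against 16.2, 19 and 19.8 CPM in SC, a log2 fold change of 0.78 ± 0.10 (adjusted p = 4.21e-06). Neither gene had overlapping groups.

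In the large subunit, Mrpl45, a membrane-facing protein related to the import component TIM44, had 66.1, 60.8 and 60.3 CPM in SCR, against 32.9, 30.4 and 32.1 CPM in SC. Its log2 fold change was 0.97 ± 0.06 (adjusted p = 4.23e-10). Mrpl52 had 54.2, 60.2 and 56.5 CPM in SCR, against 32.9, 28.4 and 29.2 CPM in SC, with a log2 fold change of 0.92 ± 0.09 (adjusted p = 1.66e-07). All SCR libraries of both genes lay above all SC libraries. Mrpl12, the stalk protein that receives translation factors, had 121, 109 and 110 CPM in SCR, against 67.6, 61.8 and 56.9 CPM in SC, a log2 fold change of 0.87 ± 0.07 (adjusted p = 5.71e-09). Per exon length it was the most abundant member, with 68.6 ± 3.75 RPKM in SCR and 35.1 ± 2.86 RPKM in SC (SD, n = 3 each). Mrpl47, the counterpart of bacterial L29, had 25.8, 25.4 and 28.1 CPM in SCR, against 15.9, 15.7 and 15.3 CPM in SC, and Mrpl51 had 104, 95.4 and 93.0 CPM in SCR, against 57.4, 58.1 and 59.9 CPM in SC. Their log2 fold changes were 0.76 ± 0.08 (adjusted p = 4.47e-07) and 0.74 ± 0.06 (adjusted p = 2.00e-08), again with no overlap.

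Mrpl33 and Mrps15 fell in SCR against SC. Mrpl33, the counterpart of bacterial L33, had 44.2, 45.6 and 44.2 CPM in SCR, against 62.7, 55.3 and 50.7 CPM in SC, a log2 fold change of -0.33 ± 0.08 (adjusted p = 0.00142). All SCR libraries lay below all SC libraries. The model counted for Mrpl33 spans chr5:31596935-31664384 with 7326 exon bases and includes sequence upstream of the RefSeq start, and 85.5% of its reads were unique. Mrps15, the counterpart of bacterial S15, had 50.2, 45.1 and 42.4 CPM in SCR, against 54.8, 57.6 and 47.7 CPM in SC, and these groups overlapped. Its log2 fold change of -0.22 ± 0.07 (adjusted p = 0.0203) no longer passed without SC replicate 1 (adjusted p = 0.0613), SC replicate 2 (0.123), SCR replicate 2 (0.0621) or SCR replicate 3 (0.121).

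Pterosin B together with RANKL was accompanied by lower levels of most members than RANKL alone. In SCRP against SCR, 44 of 78 members fell and 2 rose, while over all genes tested 19.9% fell and 17.9% rose. Among Mrpl genes 29 of 49 fell and 2 rose, with a median log2 fold change of -0.23, and among Mrps genes 15 of 29 fell and 0 rose, with a median of -0.19, against 0.00 over all genes. Every SCRP library lay below every SCR library for 52 members, against 25.4% of all genes, and above for 2 members, against 23.9% of all genes. Without SCRP replicate 3, the library with globin reads, 22 Mrpl and 17 Mrps genes fell.

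Mrpl52 had the largest drop, with 37.4, 35.0 and 28.5 CPM in SCRP, against 54.2, 60.2 and 56.5 CPM in SCR. Its log2 fold change was -0.76 ± 0.09 (adjusted p = 4.50e-06). Mrpl51 had 66.5, 58.5 and 58.5 CPM in SCRP, against 104, 95.4 and 93.0 CPM in SCR, a log2 fold change of -0.67 ± 0.06 (adjusted p = 2.44e-07). Neither gene differed from SC beyond the test when SCRP was set against it (log2 fold changes of 0.15 ± 0.09 and 0.06 ± 0.06, adjusted p = 0.166 and 0.404), although Mrpl52 passed without SCRP replicate 3 (0.27, adjusted p = 0.00974). Mrpl1, the counterpart of bacterial L1 at the mobile stalk, had 19.5, 21.1 and 21.2 CPM in SCRP, against 33.2, 29.6 and 29.3 CPM in SCR, a log2 fold change of -0.58 ± 0.08 (adjusted p = 2.11e-05). Mrpl1 in SC was at 19.4, 20.4 and 21.3 CPM, within the same range as in SCRP.

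Mrpl53 and Mrpl12 completed the 5 largest drops of the large subunit. Mrpl53 had 13.0, 12 and 11.9 CPM in SCRP, against 17.2, 17.7 and 16.5 CPM in SCR, a log2 fold change of -0.48 ± 0.11 (adjusted p = 0.00320). Only 0.246% of Mrpl53 reads were unique, so this value is uncertain. Its exons overlap Gm42688 on the same strand and Ccdc142os on the other, but the reason for the low share was not tested. Mrpl12 had 88.8, 79.5 and 84.3 CPM in SCRP, against 121, 109 and 110 CPM in SCR, and fell by 0.43 ± 0.06 on the log2 scale (adjusted p = 5.77e-05). Mrpl45, at 49.8, 47.4 and 49.4 CPM in SCRP, and Mrpl47, at 21.6, 21.7 and 19.2 CPM in SCRP, each fell by 0.35 against SCR (adjusted p = 0.000147 and 0.00252). In all 4 genes every SCRP library was below every SCR library. Against SC, Mrpl12, Mrpl45 and Mrpl47 stayed higher in SCRP, with log2 fold changes of 0.44, 0.62 and 0.41 (adjusted p = 2.51e-05, 1.77e-07 and 0.000378), while Mrpl53 did not pass (-0.09 ± 0.12, adjusted p = 0.551).

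In the small subunit, Mrps35 had 26.2, 23.9 and 25.5 CPM in SCRP, against 39.3, 37.3 and 40.8 CPM in SCR, a log2 fold change of -0.64 ± 0.08 (adjusted p = 1.69e-05). Mrps6 had 30.8, 30.9 and 28.1 CPM in SCRP, against 44.8, 41.1 and 44.8 CPM in SCR, a log2 fold change of -0.54 ± 0.07 (adjusted p = 2.54e-05). Both remained above SC in SCRP, by 0.63 ± 0.09 and 1.04 ± 0.08 (adjusted p = 1.17e-05 and 8.80e-09), with no overlap. Mrps34 had 35.1, 34.6 and 29.5 CPM in SCRP, against 47.8, 44.3 and 41.6 CPM in SCR, and fell by 0.43 ± 0.08 on the log2 scale (adjusted p = 0.000469). On unique reads Mrps34 fell by 0.49 (adjusted p = 0.00321). Of the genes it overlaps, Mapk8ip3 rose by 0.24 there (adjusted p = 0.00585) and Nme3 did not pass (0.21, adjusted p = 0.329). Mrps36, which in mammals is known as a component of the 2-oxoglutarate dehydrogenase complex and not of the ribosome, had 19.9, 16.3 and 17.5 CPM in SCRP, against 23.2, 24.7 and 24.6 CPM in SCR (log2 fold change -0.43 ± 0.09, adjusted p = 0.000920). In SC its level was 19.8, 18.4 and 17.9 CPM, and it rose in SCR against SC by 0.37 ± 0.09 (adjusted p = 0.00172). Mrps22 differed from these: at 25.1, 25.9 and 32.3 CPM in SCRP it overlapped SCR, and its log2 fold change of -0.18 ± 0.10 passed only without SCRP replicate 3 (-0.30, adjusted p = 0.0216, against 0.178 with it). Against SC, Mrps22 and Mrps34 were higher in SCRP by 0.60 and 0.36 on the log2 scale (adjusted p = 7.87e-05 and 0.00152), and the Mrps34 value on unique reads was 0.28 (adjusted p = 0.0655).

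Mrpl24 and Mrpl33 rose in SCRP against SCR. Mrpl24, the counterpart of bacterial L24 near the exit tunnel, had 54.4, 53.4 and 53.0 CPM in SCRP, against 45.9, 46.4 and 47.6 CPM in SCR, a log2 fold change of 0.20 ± 0.06 (adjusted p = 0.00860). In SC it had 47.3, 43.0 and 45.8 CPM, which overlapped SCR. Mrpl33 had 53.7, 57.3 and 48.1 CPM in SCRP, against 44.2, 45.6 and 44.2 CPM in SCR, a log2 fold change of 0.25 ± 0.08 (adjusted p = 0.0186) with no overlap. That call was lost without SCR replicate 1 (adjusted p = 0.0539), SCR replicate 3 (0.0564) or SCRP replicate 2 (0.100).

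**Figure D3:**
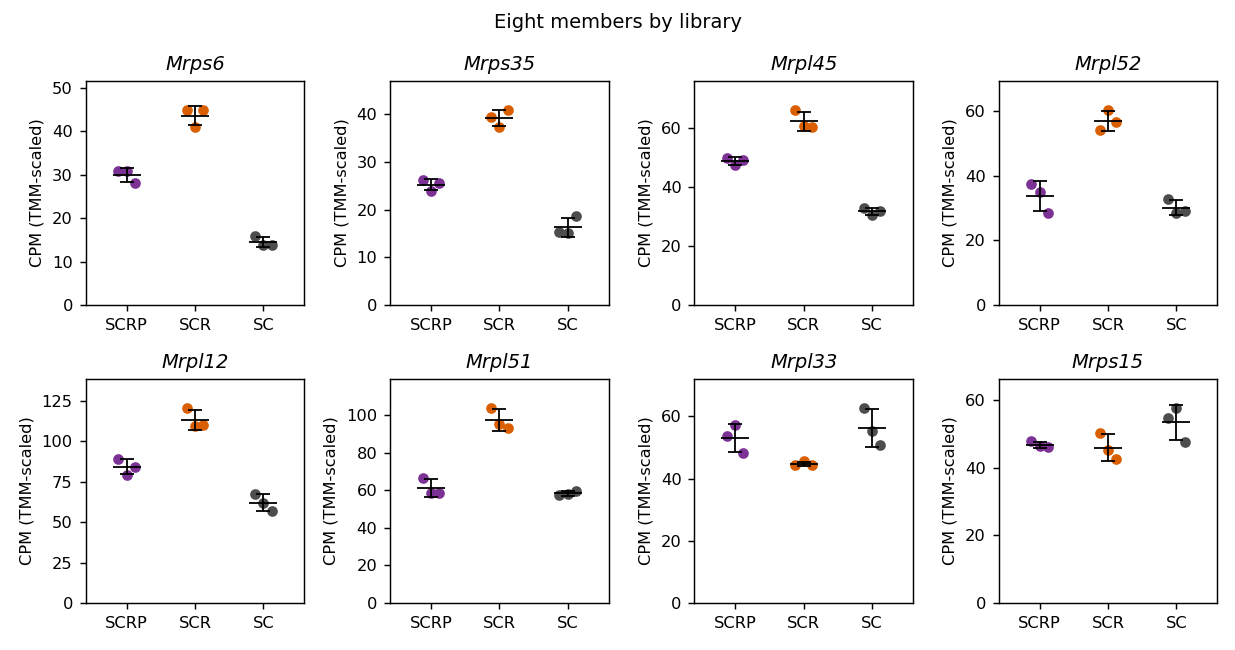
Level in CPM of 8 members in each library of SCRP, SCR and SC, with the mean and SD of 3 libraries. The first 6 genes are highest in SCR, while Mrpl33 is lowest in SCR (44.2 to 45.6 CPM) and Mrps15 is highest in SC.

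Against SC, SCRP cultures kept part of the higher level. In SCRP against SC, 34 of 78 members rose and 5 fell, while over all genes tested 28.6% rose and 27.4% fell. Mrpl genes counted 20 that rose and 3 that fell of 49, with a median log2 fold change of 0.15, and Mrps genes 14 that rose and 2 that fell of 29, with a median of 0.17. Libraries did not overlap for 37 members higher in SCRP, against 31.1% of all genes, and for 5 members lower, against 30.4% of all genes. With library totals alone for scaling, which moved the median of all genes by 0.12 on the log2 scale, 33 Mrpl genes rose and 0 members of either subunit fell. The 5 members that fell were Mrpl4, Mrpl27, Mrpl28, Mrps15 and Mrps21, all counterparts of bacterial proteins. Mrps21 had 36.9, 38.1 and 30.8 CPM in SCRP, against 43.4, 44.3 and 37.8 CPM in SC, an overlap, and its change of -0.25 ± 0.08 (adjusted p = 0.0177) did not pass without SC replicate 1, SC replicate 2 or SCRP replicate 3 (adjusted p = 0.0633, 0.0873 and 0.114). Mrps15 had 47.8, 46.4 and 46.1 CPM in SCRP, a change of -0.19 ± 0.07 against SC (adjusted p = 0.0396), which was lost without either SC replicate 1 or 2, SCR replicate 2 or any SCRP library (adjusted p = 0.0533 to 0.207).

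The 3 comparisons share libraries, so their values are given side by side. Orders of means and patterns of calls were counted for the members only. Without their shares over all genes, they do not show whether the members differ from other genes. The mean level was lowest in SC, intermediate in SCRP and highest in SCR for 54 members, 35 Mrpl and 19 Mrps. It was lowest in SCRP and highest in SCR for 13 members. Another 6 members were highest in SCRP, and 5 were highest in SC. By calls, 18 members (10 Mrpl and 8 Mrps) rose in SCR against SC, fell in SCRP against SCR and were still higher in SCRP than in SC. Another 22 (16 Mrpl and 6 Mrps) rose, fell, and did not pass in SCRP against SC. A further 14 (8 Mrpl and 6 Mrps), among them Mrpl17, Mrpl50 and Mrps17, rose in both RANKL groups against SC and did not pass between SCRP and SCR. In 10 members no comparison passed.

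**Figure D4:**
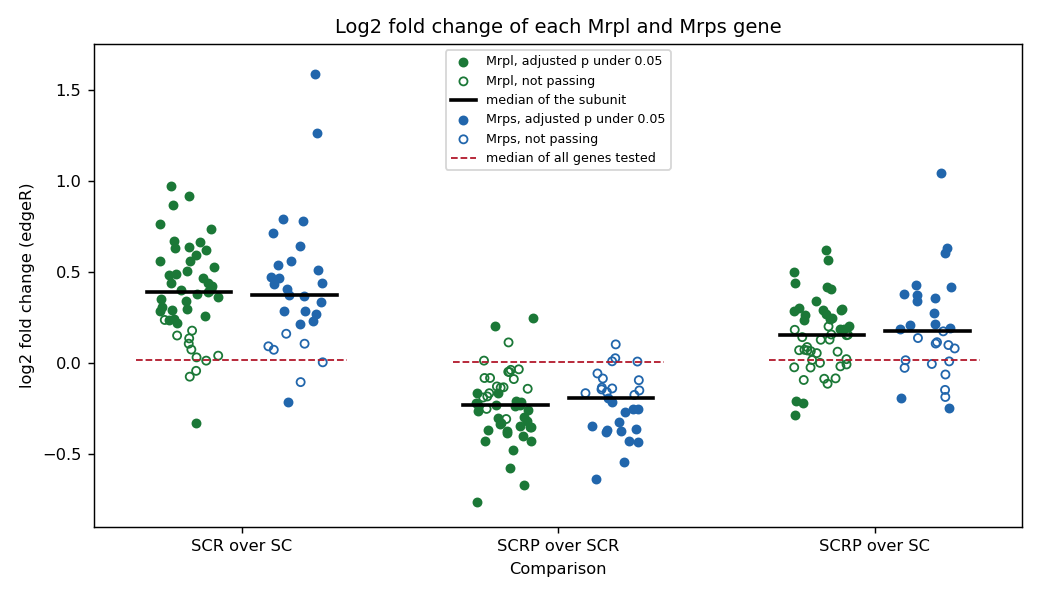
Log2 fold change of each Mrpl and Mrps gene in SCR over SC, SCRP over SCR and SCRP over SC, with filled points for an adjusted p under 0.05, black bars for subunit medians and a dashed line for the median of all genes tested. Medians of the subunits are 0.39 and 0.37, then -0.23 and -0.19, then 0.15 and 0.17.

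The subunits were compared through their summed levels. Mrpl genes summed to 1877, 1817 and 1766 CPM in SCRP, 2172, 2151 and 2129 CPM in SCR, and 1698, 1640 and 1591 CPM in SC. Mrps genes summed to 993, 986 and 971 CPM in SCRP, 1170, 1138 and 1146 CPM in SCR, and 901, 879 and 838 CPM in SC. For both subunits all SCRP libraries lay between the SCR and the SC libraries. On this scale the ratio of Mrpl to Mrps was 1.85 ± 0.04 in SCRP, 1.87 ± 0.02 in SCR and 1.88 ± 0.02 in SC (SD, n = 3 each), differences no larger than the spread between libraries. Summed RPKM, which divides by exon length, gave ratios of 2.03, 1.96 and 1.99 in SCRP, 2.04, 2.09 and 2.06 in SCR, and 1.93, 1.88 and 1.97 in SC. On that scale SCR and SC did not overlap, so whether the balance of the subunits moved depended on the weighting of genes by length, and no test was made of it. The level per gene was 16.6 RPKM for Mrpl and 14.1 RPKM for Mrps in SCRP, 19.9 and 16.3 RPKM in SCR, and 14.1 and 12.3 RPKM in SC.

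**Figure D5:**
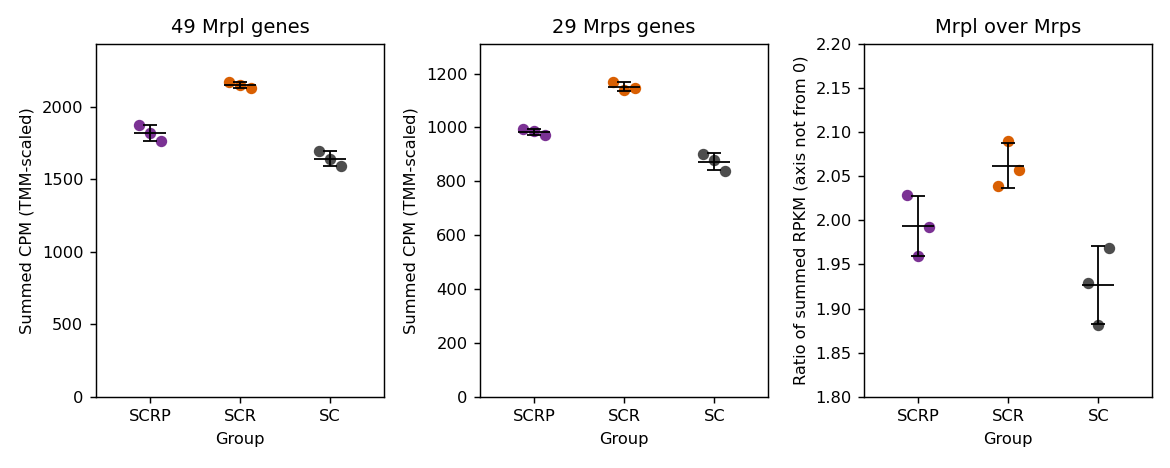
Summed CPM of the 49 Mrpl genes and of the 29 Mrps genes, and the ratio of summed RPKM of Mrpl over Mrps, in each library of SCRP, SCR and SC, with the mean and SD of 3 libraries. Both sums are highest in SCR and lowest in SC, and the RPKM ratio of SCR (2.04 to 2.09) lies above that of SC (1.88 to 1.97).

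Names do not always give the place of a protein. Mrps30 and Mrps18a sit in the large subunit of the mammalian mitochondrial ribosome, and Mrps36 is not part of it. Placed by structure, 39 of 51 large and 19 of 26 small members rose in SCR against SC, 1 of each fell, and both medians were 0.39. Over all genes tested 30.7% rose and 28.4% fell there. Mrps30 had 32.2, 32.6 and 36.3 CPM in SCRP, 35.1, 39.1 and 39.4 CPM in SCR, and 27.9, 28.4 and 27.5 CPM in SC. It rose in SCR against SC by 0.44 ± 0.07 (adjusted p = 5.18e-05). In SCRP against SCR its log2 fold change of -0.17 ± 0.07 missed the threshold (adjusted p = 0.0742) but passed without SCR replicate 1 (0.0372) or SCRP replicate 3 (0.0328). On the 72.9% of Mrps30 reads that were unique, that change was -0.14 (adjusted p = 0.212).

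The 3 paralogs of bacterial S18 had different calls. Mrps18b, of the small subunit, had 47.1, 46.7 and 51.9 CPM in SCRP, 55.5, 56.2 and 55.1 CPM in SCR, and 42.9, 42.0 and 40.7 CPM in SC. It rose by 0.41 ± 0.06 in SCR against SC (adjusted p = 1.22e-05), and its drop of -0.19 ± 0.06 in SCRP against SCR (adjusted p = 0.0138) was lost without SCRP replicate 1 (0.0559) or 2 (0.0680). Mrps18a, of the large subunit, had 34.7, 32.2 and 34.7 CPM in SCRP, 39.4, 40.2 and 41.9 CPM in SCR, and 36.6, 33.4 and 33.5 CPM in SC. It rose by 0.23 ± 0.06 in SCR against SC (adjusted p = 0.00600) and fell by 0.26 ± 0.06 in SCRP against SCR (adjusted p = 0.00486). Mrps18c, the paralog closest to the bacterial protein in its place, had 27.1, 30.8 and 23.4 CPM in SCRP, 29.7, 31.5 and 29.1 CPM in SCR, and 32.7, 29.4 and 27.9 CPM in SC, all overlapping. Its log2 fold change was 0.00 ± 0.09 in SCR against SC (adjusted p = 0.982). No test compared the paralogs with each other.

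By descent, 32 of 46 members with a bacterial counterpart rose and 2 fell in SCR against SC, with a median of 0.32. The shares over all genes tested were 30.7% that rose and 28.4% that fell. Of 31 members classed as specific to mitochondrial ribosomes 26 rose and 0 fell, with a median of 0.44. That class holds Mrps18a and Mrps18b, which are related to bacterial S18 but take other places in the ribosome. In SCRP against SCR, 22 of the first and 21 of the second group fell, with medians of -0.19 and -0.26, while 19.9% of all genes fell. No test compared these groups. Mrpl58, a large-subunit protein derived from a peptide release factor and known for rescuing stalled ribosomes, had 22.1, 21.4 and 25.9 CPM in SCRP, 26.6, 27.4 and 24 CPM in SCR, and 26.7, 24.5 and 22.9 CPM in SC. Its groups overlapped in every comparison, and its log2 fold change was 0.07 ± 0.09 in SCR against SC (adjusted p = 0.514) and -0.17 ± 0.09 in SCRP against SCR (adjusted p = 0.163, or 0.0447 without SCRP replicate 3).

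Levels between genes were compared per exon length. The length is that of all annotated exons of a gene, 8631 bases for Mrps35, 8152 for Mrpl48, 739 for Mrps21 and 1532 for Mrpl12. The mean over 9 libraries ranged between 2.86 RPKM for Mrps35 and 51.7 RPKM for Mrpl12, with a median of 14.3 RPKM. Mrps21, the counterpart of bacterial S21, was the highest small-subunit gene at 47.4 RPKM, and Mrpl48 was the lowest large-subunit gene at 4.23 RPKM. Neither Mrps35 nor Mrpl48 was lowest by CPM, with means of 26.9 and 37.9 CPM, against 14.9 CPM for Mrpl22. Mrpl48 had 36.5, 39.9 and 32.2 CPM in SCRP, 42.5, 47.4 and 43.7 CPM in SCR, and 33.4, 33.6 and 31.4 CPM in SC. It rose by 0.44 ± 0.08 in SCR against SC (adjusted p = 0.000124) and fell by 0.30 ± 0.08 in SCRP against SCR (adjusted p = 0.00589).

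The members lie on 17 chromosomes, with at most 11 on 1 of them, so they do not form a cluster in the genome. A protein-coding gene started head to head within 1000 bases for 19 members (24.4%), against 11.2% of 12487 tested protein-coding genes. By their RefSeq starts, Mrps11 and Mrpl46, a small- and a large-subunit gene, start 42 bases apart on opposite strands of chromosome 7. In the GENCODE models used for the head-to-head count their exons overlap each other, and they are not among the 19 members. Mrps11 had 19, 16.8 and 17 CPM in SCR, against 15.5, 16.1 and 15.7 CPM in SC, and did not pass (0.16 ± 0.09, adjusted p = 0.125), while Mrpl46 had 27, 25.3 and 24.2 CPM in SCR, against 19.8, 19.8 and 18.4 CPM in SC, and rose by 0.40 ± 0.08. In SCRP against SCR both fell, by 0.35 and 0.22 on the log2 scale. The strand counted is not given in the sources used here, so reads of overlapping genes on either strand may be shared. Of 45 members without any exon overlap in the annotation, 34 rose and 1 fell in SCR against SC, and 22 fell and 0 rose in SCRP against SCR. The shares over all genes tested were 30.7% that rose and 28.4% that fell in the first comparison, and 19.9% that fell and 17.9% that rose in the second.

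Intron reads gave a second readout of the same libraries with far fewer reads, 3211716 to 4282065 in a library. In SCR against SC, 10 of 46 Mrpl and 6 of 29 Mrps genes with enough intron reads rose and Mrpl27 fell, while over 12621 genes 17.3% rose and 12.8% fell. In SCRP against SCR, Mrpl33 rose by 0.53 (adjusted p = 0.00716), Mrpl57 fell by 0.79 (adjusted p = 0.0111) and 0 Mrps genes passed, while 5.78% of all genes rose and 6.35% fell. Median log2 fold changes in SCRP against SCR were 0.00 for Mrpl and -0.02 for Mrps on intron reads, against -0.23 and -0.19 on exon reads. In SCR against SC these medians were 0.19 and 0.31 on intron reads, against 0.39 and 0.37 on exon reads. Over all genes the intron medians were 0.04 in SCRP against SCR and 0.07 in SCR against SC. In SCRP against SC, 6 Mrpl and 4 Mrps genes rose and Mrpl27 fell, while 16.1% of all genes rose and 11.0% fell. Mrps35, for example, had 322, 183 and 232 intron reads in SCR, against 99, 80 and 98 in SC, and rose by 1.25 on the log2 scale (adjusted p = 1.64e-05). In SCRP it had 205, 200 and 187 intron reads, a log2 fold change of -0.30 against SCR (adjusted p = 0.364). The difference between exon and intron reads was not tested.

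Other genes of mitochondrial translation were counted from lists of their known members. For each list, the shares over all genes tested were 30.7% that rose and 28.4% that fell in SCR against SC. In SCRP against SCR these shares were 17.9% and 19.9%. Of 5 genes for mitochondrial ribosomal proteins with other names 4 rose in SCR against SC and 2 fell in SCRP against SCR. Ptcd3, a small-subunit protein with RNA-binding repeats, rose by 0.68 ± 0.05 in SCR against SC and fell by 0.25 ± 0.05 in SCRP against SCR, and Gadd45gip1, a large-subunit protein, rose by 0.52 ± 0.08 and fell by 0.34 ± 0.08. Of 34 genes for ribosome assembly and rRNA maturation 15 rose and 1 fell in SCR against SC, and 3 rose and 5 fell in SCRP against SCR, smaller shares than the 17.9% and 19.9% of all genes that rose and fell there. C1qbp, a matrix protein that binds RNA, rose by 0.97 ± 0.04 in SCR against SC, and the 1 that fell was Rbfa, a small-subunit assembly factor. Among 16 translation factors 11 rose and Mss51, at under 1 CPM on average in each group, fell in SCR against SC, and 0 rose and 6 fell in SCRP against SCR. Among 20 genes for charging mitochondrial tRNAs, 14 rose and Gatc fell in SCR against SC, and 0 rose and 8 fell in SCRP against SCR. Tufm, the elongation factor EF-Tu of mitochondria, had 104, 105 and 94.1 CPM in SCRP, 145, 134 and 142 CPM in SCR, and 80.4, 78.0 and 75.4 CPM in SC. It rose by 0.85 ± 0.05 in SCR against SC (adjusted p = 6.52e-10) and fell by 0.47 ± 0.05 in SCRP against SCR (adjusted p = 2.92e-06). Mars2, the methionyl-tRNA synthetase, rose by 0.98 ± 0.08 and fell by 0.38 ± 0.08 in the same comparisons. Of 13 genes for mitochondrial transcription and DNA 9 rose and Polg, the mitochondrial DNA polymerase, fell in SCR against SC, while 0 rose and 3 fell in SCRP against SCR. Twnk, the mitochondrial DNA helicase, rose by 1.24 ± 0.14 in SCR against SC.

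Of 13 mitochondrial messenger RNAs, the templates of this ribosome, 12 rose in SCR against SC and 0 fell, with a median log2 fold change of 0.33. Over all genes 30.7% rose and 28.4% fell there. In SCRP against SCR 1 of the 13 rose and 2 fell, smaller shares than the 17.9% and 19.9% of all genes. The ribosomal RNAs mt-Rnr1 and mt-Rnr2 rose by 0.57 ± 0.06 and 0.43 ± 0.05 in SCR against SC and fell by 0.50 ± 0.06 and 0.24 ± 0.04 in SCRP against SCR, but the libraries were depleted of ribosomal RNA, so what was left is no measure of their level in the cells. Genes for proteins of the cytosolic ribosome moved in the same direction under RANKL. Of 77 tested, 67 rose in SCR against SC and 0 fell, with a median of 0.37. In SCRP against SCR 14 of 77 fell, a share near the 19.9% of all genes, and the median was -0.07. The medians of Mrpl and Mrps genes there were -0.23 and -0.19, and the difference was not tested.

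Among 10 nuclear regulators tested, 7 rose in SCR against SC and 0 fell, while over all genes 30.7% rose and 28.4% fell. In SCRP against SCR 1 rose and 3 fell, while over all genes 17.9% rose and 19.9% fell. Ppargc1b, a coactivator of mitochondrial genes, had 11.5, 12.8 and 10.9 CPM in SCRP, 42.1, 38.6 and 36.5 CPM in SCR, and 3.77, 3.12 and 4.96 CPM in SC. It rose by 3.30 ± 0.13 in SCR against SC (adjusted p = 2.12e-12) and fell by 1.73 ± 0.12 in SCRP against SCR (adjusted p = 8.73e-09). Myc, a transcription factor that acts on many ribosome genes, had 163, 166 and 179 CPM in SCRP, 125, 127 and 136 CPM in SCR, and 82.4, 84.6 and 89.7 CPM in SC, and so rose in both comparisons (0.60 ± 0.05 and 0.39 ± 0.05). Of the factors whose letters were searched, Gabpa rose by 0.19 ± 0.05 in SCR against SC, while Nrf1 had a log2 fold change of 0.02 ± 0.08 (adjusted p = 0.885). The level of Yy1, whose letters were also searched, is not given here.

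The knockout experiment was deposited as a list of 2275 genes, each with an authors' fold of at least 2 and a false discovery rate under 0.05, and 0 of the 78 members were in it. No test of KO against WT could be made for the members. In SCR against SC only Mrps6 and Mrps35 changed by more than 2-fold, so a list of this kind would not show changes of the size seen in the other members.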

How the data were processed

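Total RNA went into rRNA-depleted, strand-marking libraries, per the labels' protocols. Build GRCm38 is named per the submitters' processing notes, while aligner and counter are not given in the sources at hand. The authors deposited whole exon read counts per gene, with unique exon and intron reads, per the file headers. The deposited RPKM values are the authors' reads scaled by exon length and library total. The deposited p-values (with false discovery rate) and signed fold score come from the authors' own test, per the file headers. In each library 75.3% to 79.0% of low counts were even, a pattern of read pairs counted by both mates.

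SCRP, SCR and SC counts entered 1 quasi-likelihood fit (edgeR 4.0.16, R 4.3.3) after filterByExpr (13650 genes left) and TMM scaling, with 6 residual degrees of freedom. P-values are two-sided, Benjamini-Hochberg adjusted over all genes, with a threshold of 0.05. CPM uses TMM-scaled totals. Intron reads were fitted the same way, a step added after the exon results were seen. The scripts were tested on simulated data. DESeq2 1.42.0, other scalings and filters, unique reads and left-out libraries served as alternatives. Tables were handled with Python 3.11.15 and pandas 2.3.3, and plots drawn with matplotlib 3.10.9.

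Gene positions were equal to GENCODE mouse release 21 for all 78 members, from which exon overlaps and head-to-head genes were taken. Promoter windows with their starts, and the distance between Mrps11 and Mrpl46, come from RefSeq, GRCm38.p6, and 9 members had no window. Motifs were searched as exact letters on both strands. Members, lists and motifs were chosen with earlier results of these data known. Genes given with values in every library were the 5 Mrpl and 4 Mrps genes with the largest change in SCR against SC and in SCRP against SCR, members passing against their subunit, the ends of the RPKM range, and Mrps18a, Mrps18b, Mrps18c, Mrps30, Mrps36, Mrpl12 and Mrpl58; from other lists, up to 3 genes with the largest change. Mrps11, Mrpl46, Gabpa, Nrf1, Mrpl17, Mrpl50, Mrps17 and the lone exceptions of a list were added after their values were seen. A further 180 per-sample columns were not used.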

Additional observations from a re-analysis of the deposited data

How the results depend on the processing

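Library totals without scaling factors moved the median of all genes by 0.11 in SCR against SC and 0.12 in SCRP against SC (log2), with 62.4% and 64.0% of all calls higher against 52.0% and 51.1%. Relative to that median, 71 and 56 members were higher in both scalings. Under library totals the medians were 0.50 for Mrpl and 0.48 for Mrps in SCR against SC, and 0.28 and 0.30 in SCRP against SC, where 33 Mrpl genes rose. Then 0 Mrps genes fell in SCR against SC, and 0 Mrpl and 0 Mrps genes fell in SCRP against SC. Folds of summed levels were 1.41 for Mrpl and 1.42 for Mrps in SCR over SC, and 1.21 and 1.23 in SCRP over SC; with RPKM the Mrpl folds were 1.41 and 1.18. The ratio of Mrpl to Mrps was 1.99 in SCRP, 2.06 in SCR and 1.93 in SC with RPKM. Placed by structure, the ratio was 2.10 in SCRP, 2.13 in SCR and 2.16 in SC with CPM, and 2.17, 2.25 and 2.10 with RPKM, so that SC was highest on the first scale and lowest on the second.

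Leaving out 1 library at a time, Mrpl genes that rose numbered 36 to 39 and Mrps genes 21 to 22 in SCR against SC; in SCRP against SCR, Mrpl genes that fell numbered 22 to 30 and Mrps genes 13 to 17, with an Mrps median of -0.24 to -0.17, and Mrpl genes that rose 1 to 2. Mrps genes that fell numbered 0 to 1 in SCR against SC and 0 to 2 in SCRP against SC. RLE scaling, DESeq2, no filter, unique reads and the 2-group fits kept every count within 1.5 times. Libraries of different groups with the same replicate number correlated at -0.05 to 0.095 in their deviations from group means, and those with different numbers at -0.08 to 0.05. Between SCR and SCRP the same numbers gave 0.0494, 0.0954 and 0.0463, and different numbers -0.0575 to 0.00704. Whether replicate numbers pair libraries was not tested. The fit with a replicate block gave 39 Mrpl and 22 Mrps genes that rose in SCR against SC and 32 and 15 that fell in SCRP against SCR. No paired analysis of KO against WT was possible because 0 members were listed.

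Direction turned only for named values that did not pass. In SCR against SC, Mrps18c was at -0.00165 with RLE scaling, -0.000747 with no filter, -0.00135 with DESeq2 and -0.0436 to 0.0726 with a library left out, and Mrps21 at 0.00189 with library totals. In SCRP against SC, library totals gave 0.0399 for Mrpl33, 0.0380 for Mrpl53, 0.0305 for Mrpl58, 0.0973 for Mrps18a and 0.0611 for Mrps36. With a library left out, SCRP against SC gave -0.0149 to 0.0571 for Mrpl1, -0.15 to 0.00465 for Mrpl33, -0.20 to 0.0719 for Mrpl53 and -0.0465 to 0.0208 for Mrps18a, and SCRP against SCR gave -0.0290 to 0.10 for Mrps15. The causes were not tested.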
